A study of Mus musculus with 59 samples.

Results

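Gas6, Pros1, Axl, Mertk and Tyro3 encode the ligands and the receptors of the TAM system, and their mRNA was followed in lung, liver and forestomach of mice given a polycyclic aromatic hydrocarbon. They are 5 of the 20018 genes and 6 of the 26413 probes that could be named on the microarray, since Tyro3 had 2 probes. The set was chosen by a measured value, the higher Gas6 ratio in high-dose liver than in vehicle liver, so every value of that contrast, and every liver value of Gas6 against vehicle, is given as a description with no test. Male Muta™Mouse animals, a transgenic strain carrying a bacterial reporter gene for mutation assays, were gavaged daily with benzo(b)fluoranthene (BbF) in olive oil for 28 days and their tissues were collected 72 h after the last dose, at about 16 weeks of age. Per day and kg of body weight, low-dose mice received 25 mg, medium-dose mice 50 mg and high-dose mice 100 mg, and vehicle mice received olive oil alone. One of the labels and the design text name the compound benz(a)anthracene instead, while the sample titles and the treatment protocol name BbF, which is used here. The 59 arrays formed 12 groups of 5 mice each, except low-dose lung with 4, and the same mice gave all 3 tissues. Each array compared tissue RNA (Cy5) with a reference RNA pooled from mouse cell lines (Cy3), so a level below is log2(tissue/reference), 0 means equal signal in both, and levels of different genes are not comparable with each other.

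Gas6 and protein S, the product of Pros1, are vitamin K-dependent proteins whose Gla domain binds phosphatidylserine on dying cells and platelets, and whose other end binds the receptor tyrosine kinases Tyro3, Axl and Mertk. The receptors let macrophages and epithelial cells engulf dying cells and dampen innate immune signalling. Protein S engages Tyro3 and Mertk and is also a plasma cofactor of activated protein C, made largely by the liver, while Gas6 binds all the receptors, with the highest affinity for Axl. In liver, Mertk is a receptor of resident macrophages, and Gas6 is known from Kupffer and stellate cells. The animals were dosed with a compound class that acts through the aryl hydrocarbon receptor (AhR), whose binding site has the core GCGTG. Whole tissue was measured, so fewer cells of a type and less RNA per cell cannot be told apart.

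The promoters of both ligands and of Tyro3 are shown because these 3 genes carry the dose differences described here. Each is the 250 bases before the start site of transcription, from RefSeq on GRCm38.p6, printed 5′ to 3′ on the strand of the gene, with matches to GCGTG and to the GC box GGGCGG, both searched on both strands, in capitals. The Gas6 window is chr8:13494536-13494785 on the minus strand, that of Pros1 is chr16:62854057-62854306 on the plus strand, and that of Tyro3 is chr2:119799264-119799513 on the plus strand.
Gas6: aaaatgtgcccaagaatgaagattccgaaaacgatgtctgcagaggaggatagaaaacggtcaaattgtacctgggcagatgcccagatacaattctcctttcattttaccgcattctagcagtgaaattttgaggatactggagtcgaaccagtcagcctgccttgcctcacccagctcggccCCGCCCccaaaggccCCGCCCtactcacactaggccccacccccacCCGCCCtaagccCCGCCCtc
Pros1: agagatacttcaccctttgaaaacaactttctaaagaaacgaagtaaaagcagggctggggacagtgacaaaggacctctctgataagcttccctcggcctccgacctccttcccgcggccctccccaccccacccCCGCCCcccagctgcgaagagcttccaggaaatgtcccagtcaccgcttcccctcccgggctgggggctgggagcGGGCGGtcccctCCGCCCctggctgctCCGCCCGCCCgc
Tyro3: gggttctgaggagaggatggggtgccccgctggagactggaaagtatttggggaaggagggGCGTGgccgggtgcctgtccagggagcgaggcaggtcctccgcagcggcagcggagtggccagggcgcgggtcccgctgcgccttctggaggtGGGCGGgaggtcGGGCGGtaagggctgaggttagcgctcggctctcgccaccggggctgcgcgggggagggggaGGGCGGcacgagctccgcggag
The Gas6 window held 0 matches to GCGTG and 4 to GGGCGG, the Pros1 window 0 and 5, and the Tyro3 window 1 and 3. The Axl window held 0 and 1, and that of Mertk 0 and 3. Of 32851 promoter windows of this length, 28.2% held GCGTG and 32.7% held GGGCGG.

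The tissues matched their labels by marker genes, but 1 liver slide and 1 lung stood apart. Mean log2 ratios of 5 lung epithelial markers lay between 6.33 and 7.18 in lung and reached at most 1.17 elsewhere, and those of 8 hepatocyte markers lay between 6.50 and 7.56 in liver and between 0.78 and 0.98 in lung. In forestomach the hepatocyte markers spread from 0.48 to 5.13. Squamous epithelial markers lay between 4.52 and 4.99 in forestomach, and the low-dose lung of mouse 6 had 3.52 where the other lungs had at most 0.21. The 20 livers were spread over 3 slides, and on the dim slide (8 arrays, with 1 vehicle liver, 2 of the low, 2 of the medium and 3 of the high dose) only 10.7% to 12.9% of probes were well above background in Cy5, against 37.0% to 46.1% on the other 2 liver slides. There Gas6 was well above background on 8 of 8 arrays and Pros1 on 7, whereas Axl, Mertk and Tyro3 were so on 0 of 8. The dose comparisons in liver therefore carried the slide as a block and are also given without the dim slide. All 6 probes stayed below saturation.

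In vehicle mice the ligands and receptors had different tissue orders, and Tyro3, on 1 of its 2 probes, differed most between tissues. The Gas6 ratio was 3.46 ± 0.19 (SD, n = 5) in lung, 3.00 ± 0.18 in forestomach and 0.34 ± 0.26 in liver, a description that puts liver 8.68-fold below lung. Forestomach lay below lung by 0.45 ± 0.13 (log2 difference ± SE, adjusted p = 0.0123 with limma), short of the 1.5-fold change that was also asked of a differentially expressed gene (DEG), and with median centring of each array in place of loess the difference was -0.09. A DEG here changed at least 1.5-fold and had a p of at most 0.05 after Benjamini-Hochberg adjustment over all probes. The other ligand was ordered differently. Pros1 was 2.35 ± 0.13 in lung, 1.73 ± 0.69 in liver and 0.49 ± 0.24 in forestomach. Forestomach had less Pros1 than lung (-1.86 ± 0.25, adjusted p = 1.74e-05) and than liver (-1.24 ± 0.25, adjusted p = 0.000818), whereas liver and lung did not pass the test (-0.62, adjusted p = 0.0580). The spread in liver came with the vehicle array on the dim slide, at 0.51 where the other 4 lay between 1.88 and 2.14. Without that liver the log2 difference of Pros1 between liver and lung was -0.32, with an adjusted p of 0.0322 but under 1.5-fold. With median centring neither Pros1 difference against forestomach passed the test any longer, at -1.70 against lung and -0.96 against liver.

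Among the receptors, Mertk had its highest mean in lung, and Tyro3 and Axl had theirs in forestomach. Mertk, the receptor of resident macrophages, was at 2.20 ± 0.39 in lung, 1.09 ± 0.47 in liver and 0.11 ± 0.18 in forestomach. Liver lay 1.11 ± 0.21 below lung (adjusted p = 0.000491) and forestomach 2.09 ± 0.21 below lung (adjusted p = 1.07e-06), and all 3 tissues differed as DEGs. Tyro3, known best from the nervous system, stood at 2.47 ± 0.24 in forestomach against 0.49 ± 0.12 in lung and -1.57 ± 0.69 in liver. Forestomach exceeded liver by 4.04 ± 0.24, a 16.4-fold difference (adjusted p = 1.93e-09), and exceeded lung by 1.98 ± 0.24 (adjusted p = 8.10e-06). The second Tyro3 probe, dim in lung and liver, kept forestomach above lung (0.65, adjusted p = 0.0015) but gave -0.11 between liver and lung. On it forestomach exceeded liver by only 0.76 or 1.69-fold (adjusted p = 0.000371). Axl, a receptor of stromal and activated cells, lay below the reference in every tissue, at -0.78 ± 0.24 in forestomach, -1.53 ± 0.34 in lung and -2.66 ± 0.92 in liver. Its liver level was below lung by 1.13 ± 0.33 (adjusted p = 0.0121), while forestomach and lung did not pass the test (0.75 ± 0.33, adjusted p = 0.109) unless the dim vehicle liver was left out (adjusted p = 0.00117). The liver means of all these receptors include that dim array, where they were not well above background. Without it they were 1.26 for Mertk, -1.87 for the first Tyro3 probe and -3.06 for Axl. Of the 13 tissue differences tested over the 5 genes, 10 were DEGs. The background was high, with 38.8% of all genes called between liver and lung, 30.8% between forestomach and lung and 33.3% between forestomach and liver. Each slide held 1 tissue only, so slide and tissue cannot be told apart in these differences.

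**Figure D1:**
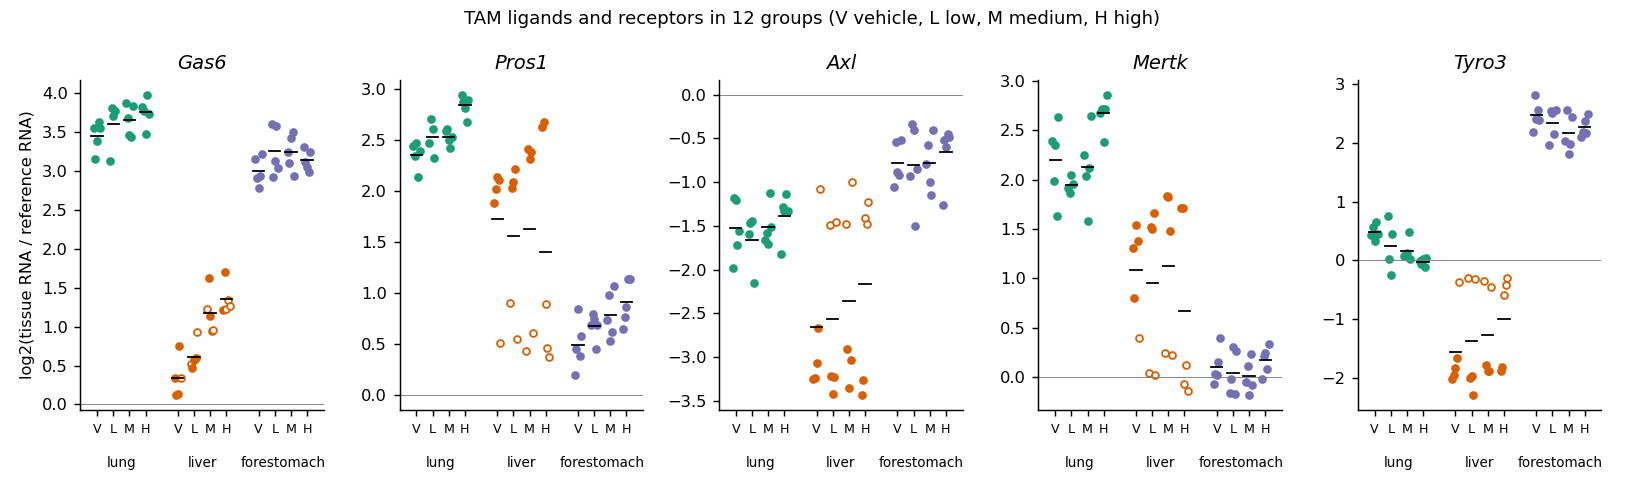
Log2(tissue RNA/reference RNA) of the 5 genes in every array, by tissue and dose (V vehicle, L low, M medium, H high), with group means as bars and arrays of the dim liver slide as open circles. Tyro3 is highest in forestomach and Mertk in lung, and the open liver circles lie apart from the filled ones for every gene but Gas6.

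Gas6 in liver was low in vehicle mice and higher in each successive dose group. Its log2 ratio in vehicle mice 1 to 5 was 0.34, 0.12, 0.13, 0.75 and 0.34, and in low-dose mice 6 to 10 it was 0.52, 0.46, 0.57, 0.60 and 0.94. In medium-dose mice 11 to 15 the values were 1.23, 1.62, 1.14, 0.94 and 0.95, and in high-dose mice 16 to 20 they were 1.21, 1.70, 1.23, 1.35 and 1.26. Every medium- and high-dose liver lay above every vehicle liver, while the low-dose group overlapped with vehicle. With the slide as a block the low-dose group exceeded vehicle by 0.29 ± 0.14 (SE), the medium-dose group by 0.85 ± 0.14 or 1.81-fold, and the high-dose group by 1.01 ± 0.14 or 2.01-fold. These values include those that led to the choice of the gene. For the background, low dose gave 0% of genes as DEGs, medium dose 0.24% and high dose 0.485%. In 0.76% of genes all high-dose livers lay above all vehicle livers, and in 0.575% all medium-dose livers did.

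The dose order of Gas6 was present on bright and dim slides alike. Within the 2 liver slides that held both groups, high dose exceeded vehicle by 1.22 on the brighter and 0.94 on the dim one. On the 12 arrays of the 2 brighter slides the mean background-subtracted Cy5 intensity was 2175 in vehicle livers and then, by increasing dose, 3069, 4838 and 6461. On the dim slide it went from 70 in its single vehicle liver through 87.3 and 106.5 to 138.8. Without the dim slide the high-dose change was 1.10 ± 0.21. With arrays centred on their median in place of loess and the slide kept as a block, it was 0.93. With that centring and no slide term, an alternative added after the data were seen, the difference was -0.72 ± 1.37. The median of all genes was shifted by -0.36 in this last setting. The one liver comparison of Gas6 with neither vehicle nor high-dose livers as a group compared was medium against low dose. There the medium dose was higher by 0.56 ± 0.13 (1.48-fold), in all 5 mice. The SE and the limma p-values of this comparison come from the fit over all livers, vehicle and high-dose livers among them. Its lowest medium-dose liver (0.945) was just above its highest low-dose liver (0.935), and the exact two-sided permutation test gave p = 0.00794, the smallest that 252 arrangements allow. Across all probes this comparison did not pass, with an unadjusted p of 0.000301 and an adjusted p of 0.678 in limma, where 0% of genes were DEGs and 3454 of 55681 probes had an unadjusted p under 0.05. All medium-dose livers lay above all low-dose livers in 0.19% of genes.

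**Figure D2:**
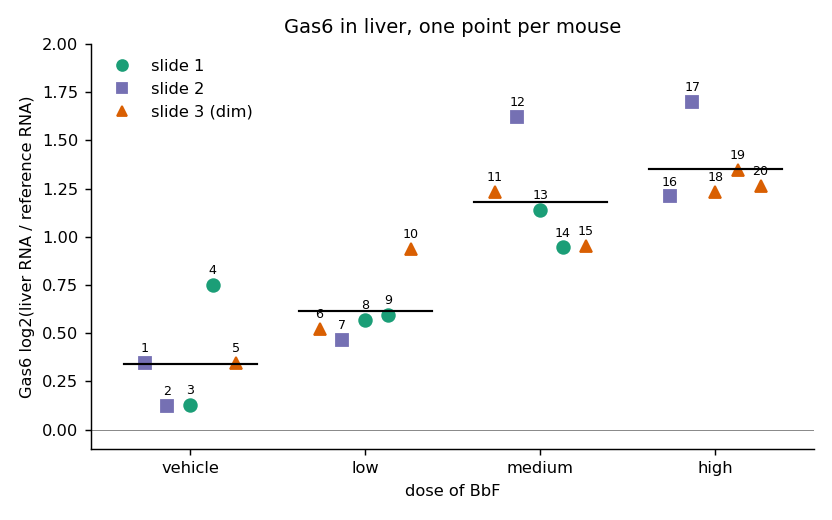
Gas6 log2(liver RNA/reference RNA) by dose of BbF, 1 point per numbered mouse, with shape and colour for the slide and bars for the group means. Means go from 0.34 in vehicle to 1.35 at the high dose, and the triangles of the dim slide lie among the other points.

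Macrophage, Kupffer and stellate cell markers had no gene past both limits of a DEG in high-dose liver, given as a description without a test. Endothelial markers had 1, and 0.485% of all genes were past both limits there. Of 8 macrophage and Kupffer cell markers and 10 stellate cell and fibroblast markers, 0 were called in either direction, with median log2 changes of -0.06 and -0.01 against 0.01 over all genes. On the brighter slides the mean macrophage marker ratio was 1.90 to 2.93 in vehicle and 2.13 to 2.64 at the high dose, and that of the stellate markers was -1.55 to -1.40 against -1.53 to -1.36. Of the endothelial markers 7 of 8 had changes above 0 and 1 was called (Lyve1, 1.27), with mean ratios of 2.02 to 2.16 in vehicle against 2.55 to 2.58 at the high dose on the brighter slides. On the dim slide the endothelial means were 0.68 in vehicle and 0.64 to 0.79 at the high dose. The macrophage means there were 0.34 and 0.01 to 0.32, and the stellate means -0.75 and -0.81 to -0.71. The calls and median changes over all livers thus rest in part on these dim arrays. All 8 hepatocyte markers had changes below 0, with a median of -0.25 and 0 called. On the brighter slides their means were 7.21 to 7.56 in vehicle and, within that range, 7.29 to 7.35 at the high dose. On the dim slide they were 6.90 in the single vehicle liver and 6.50 to 6.54 at the high dose. The part of these markers in the Gas6 result was not tested.

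Pros1, the other ligand, had a dose order in liver on the brighter slides and none on the dim one. On the brighter slides its log2 ratio was 1.88, 2.02, 2.14 and 2.11 in vehicle livers, 2.03, 2.09 and 2.22 after the low dose, 2.41, 2.32 and 2.39 after the medium dose and 2.63 and 2.67 after the high dose. On the dim slide it was 0.51 in vehicle, then 0.90 and 0.55 (low dose), 0.43 and 0.61 (medium dose) and 0.89, 0.47 and 0.37 (high dose). All medium- and high-dose values thus lay above all vehicle values on the brighter slides, and the groups overlapped on the dim slide. The share of all genes that separate on these few brighter arrays is not given here, so this separation has no background. Both high-dose livers there were on the same slide, while the vehicle livers were on both brighter slides. With all livers and the slide as a block the change was 0.36 ± 0.13 at the high dose, and without the dim slide it was 0.66 ± 0.10. The medium dose, which could be tested, gave 0.25 ± 0.12 (adjusted p = 0.529) and the low dose 0.17 ± 0.12 (adjusted p = 0.839).

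The receptors had no DEG in liver at the low or medium dose, and their liver values were limited by the dim slide. Of the 4 genes tested there besides Gas6, 0 were DEGs at either dose in limma, where 0% and 0.24% of all genes were. At each dose 1 of the 4 had an unadjusted p under 0.05, Axl at the lower and Mertk at the higher of these doses. Of 55681 probes, 3889 and 5279 had an unadjusted p under 0.05 at the low and medium dose. Axl gave -0.29 ± 0.11 at the low dose (adjusted p = 0.626) and Mertk 0.32 ± 0.13 at the medium dose (adjusted p = 0.440). At the high dose the changes were 0.18 ± 0.14 for Mertk, -0.25 ± 0.12 for Axl and -0.05 ± 0.10 for Tyro3. Mertk differed in sign between slides, at 0.65 within the brighter slide that held both groups and -0.42 within the dim one, where it was not well above background. On the brighter slides Mertk was 0.81 to 1.54 in vehicle and 1.71 in both high-dose livers.

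In high-dose lung Pros1 was higher and Tyro3 lower than in vehicle lung, each by less than 1.5-fold. Pros1 was 2.44, 2.34, 2.47, 2.14 and 2.39 in vehicle, and 2.94, 2.87, 2.81, 2.67 and 2.90 at the high dose. Every high-dose lung lay above every vehicle lung, by a mean of 0.49 ± 0.08 or 1.40-fold (95% CI 0.32 to 0.65, adjusted p = 0.000777 with limma). At the low and medium doses the Pros1 changes were 0.17 (adjusted p = 0.563) and 0.18 (adjusted p = 0.321), and over the 4 dose groups its trend from vehicle to high dose was 0.46 ± 0.08 (adjusted p = 0.000699). Within the 3 lung slides the high-dose change was 0.52, 0.51 and 0.39.

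Tyro3 differed the other way in lung, on 1 of its 2 probes. Its representative probe was 0.44, 0.57, 0.33, 0.65 and 0.45 in vehicle and -0.01, -0.06, 0.02, -0.11 and 0.04 at the high dose, so every high-dose lung lay below every vehicle lung. The change was -0.51 ± 0.13 or 1.43-fold lower (95% CI -0.79 to -0.23, adjusted p = 0.0243), the trend was -0.49 ± 0.13 (adjusted p = 0.0225), and the values within slides were -0.54, -0.47 and -0.48. The second probe, well above background on 13 of 19 lung arrays, gave -0.07 ± 0.11 (adjusted p = 0.828). The adjusted p of the representative probe passed 0.05 when vehicle mouse 2 or 4 or high-dose mouse 17 or 19 was left out, reaching 0.0629 without vehicle mouse 4, and with arrays centred on their median in place of loess the change was -0.04 (adjusted p = 0.941), where the median of all genes was shifted by 0.20.

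Mertk and Gas6 had higher means in high-dose lung that did not pass the adjusted test. Mertk was 2.39, 1.98, 2.35, 1.63 and 2.64 in vehicle and 2.68, 2.72, 2.38, 2.71 and 2.86 at the high dose, groups that overlapped, with a change of 0.47 ± 0.17 (adjusted p = 0.111, and 0.0482 without vehicle mouse 5). Gas6 was 3.15 to 3.63 in vehicle and 3.48 to 3.98 at the high dose, a change of 0.30 ± 0.13 (adjusted p = 0.202). Axl differed by 0.15 ± 0.17 (adjusted p = 0.724). In limma, 0 of the 5 genes were DEGs at any lung dose, although 0, 2 and 4 of them had an unadjusted p under 0.05 at the low, medium and high dose. Of 55681 probes, 5053, 7838 and 10248 had an unadjusted p under 0.05 at these doses. Of all genes 0.674%, 0.909% and 2.62% were DEGs at these doses. By adjusted p alone 2 of the 5 passed at the high dose, where 10.2% of all genes did, and the same 2 in the dose trend, where 9% did. All high-dose lungs lay above all vehicle lungs in 6.42% of genes and below them in 3.08%. With median centring 4 of the 5 genes were DEGs in high-dose lung, namely Pros1 (0.86), Gas6 (0.77), Mertk (0.68) and Axl (0.61), on top of the shift of 0.20 in all genes. The share of all genes that were DEGs with this centring is not given here, so the count has no background.

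Beside the lung changes, 4 of 8 endothelial markers were called up at the high dose, among them Pecam1 (0.74) and Cdh5 (0.82). The remaining endothelial markers were not called up, and 2.62% of all genes were DEGs there. Over all 8 the mean ratios overlapped, at 3.20 to 3.77 (median 3.39) in vehicle and 3.53 to 3.85 (median 3.66) at the high dose. The mean of the whole list thus moved less than the named markers, which were picked from those called up. Averaged together, the endothelial markers not called up were lower at the high dose. Of 8 macrophage markers 1 was called, the scavenger receptor Marco (1.30), and the mean ratios were 1.17 to 1.62 in vehicle and 1.31 to 1.80 at the high dose. Their part in the Pros1, Tyro3 and Mertk values was not tested. The low-dose lung of mouse 6, with squamous markers present, had the lowest Gas6 of its group (3.13 against 3.71 to 3.81) and the highest Tyro3 of any lung (0.76).

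**Figure D3:**
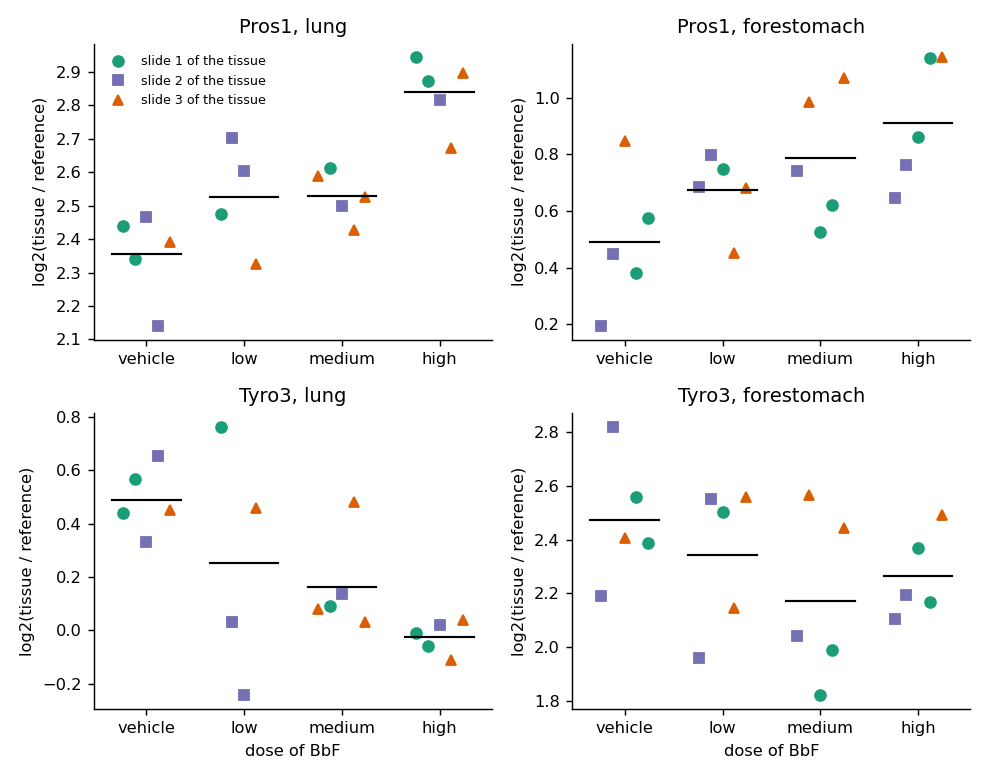
Log2(tissue RNA/reference RNA) of Pros1 and of the representative Tyro3 probe in lung and forestomach by dose, 1 point per mouse, with shape and colour for the slide within each tissue and bars for the group means. In lung the high-dose points of Pros1 lie above all vehicle points and those of Tyro3 below them, while in forestomach the groups overlap.

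In forestomach, the tissue of first contact with the gavaged compound, the ligands and receptors were not DEGs at any dose. Pros1 had the largest high-dose difference of the 5 genes. It was 0.19, 0.45, 0.85, 0.38 and 0.58 in vehicle and 0.65, 0.76, 0.86, 1.14 and 1.14 at the high dose, a change of 0.42 ± 0.13 or 1.34-fold that missed the adjusted test (unadjusted p = 0.00394 and adjusted p = 0.279 with limma). The highest vehicle value lay above 2 of the 5 high-dose values. Gas6 was 2.79 to 3.22 in vehicle and 2.99 to 3.31 at the high dose (0.14, adjusted p = 0.838). Tyro3 was 2.19 to 2.82 in vehicle and 2.11 to 2.49 at the high dose (-0.21, adjusted p = 0.763, and 0.11 with median centring), and the differences were 0.12 for Axl and 0.07 for Mertk. With median centring the Pros1 difference was 0.63 and counted as a DEG. At the low, medium and high doses 0, 1 and 1 of the 5 genes had an unadjusted p under 0.05, in each case Pros1. Of all genes 0%, 0% and 0.15% were DEGs at these doses. Of 55681 probes, 2574, 3161 and 4847 had an unadjusted p under 0.05, in the same order of doses.

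Whether lung and forestomach differed in their high-dose change was tested as an interaction. None of the 5 genes passed, and 1.3% of all genes were called in limma. Of the 5 genes 0 had an unadjusted p under 0.05, beside 5777 of 55681 probes. For Pros1 the change in lung minus that in forestomach was 0.06 ± 0.15 (95% CI -0.25 to 0.38, adjusted p = 0.955). For Tyro3 it was -0.31 ± 0.21 (adjusted p = 0.700), for Mertk 0.40 ± 0.21 (adjusted p = 0.526) and for Gas6 0.17 ± 0.19 (adjusted p = 0.873). The liver was not part of this test, and its high-dose Gas6 change of 1.01 stands beside 0.30 in lung and 0.14 in forestomach as a description.

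**Figure D4:**
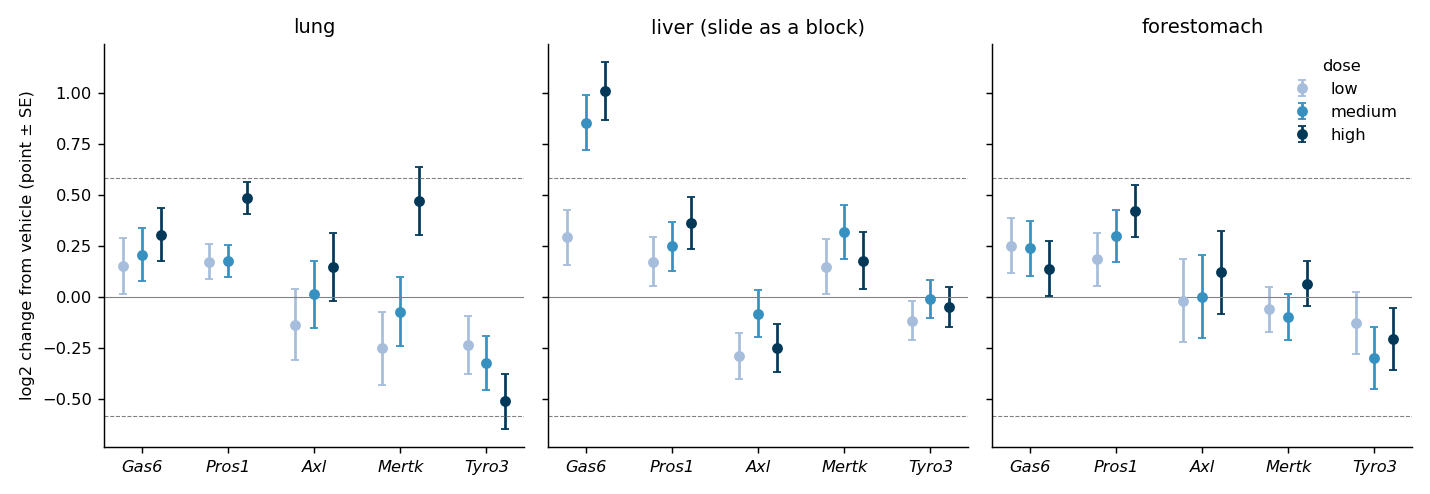
Log2 change from vehicle (point ± SE) of the 5 genes at each dose in lung, liver (slide as a block) and forestomach, with dashed lines at 1.5-fold. Gas6 at the medium and high dose in liver lies beyond the dashed lines, at 0.85 and 1.01, and every other point lies between them.

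Genes around the TAM system were read from 7 lists with 67 genes on the array, covering the vitamin K cycle, other Gla proteins, other TAM ligands and sheddases, TAM signalling, other phosphatidylserine receptors, engulfment and phosphatidylserine exposure. In high-dose lung 3 of the 67 were DEGs, all upward, beside the 2.62% of all genes. Mgp, a Gla protein that inhibits calcification, rose by 0.71 ± 0.12 (adjusted p = 0.00107), 1 of 11 in its list. Abca1, the cholesterol exporter that is induced when cells take up dying ones, rose by 0.79 ± 0.13 (adjusted p = 0.000571), 1 of 13 signal and feedback genes. Stab2, a scavenger receptor for phosphatidylserine that also served as an endothelial marker, rose by 0.61 ± 0.14 (adjusted p = 0.0100), 1 of 16 receptors and bridging proteins. The other 4 lists had 0 DEGs in lung, among them the 4 genes of the vitamin K cycle that both ligands need, with a median change of 0.05. By adjusted p alone 8 of the 67 passed in high-dose lung, beside the 10.2% of all genes.

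In liver and forestomach few of these genes moved. Socs3, the feedback inhibitor of cytokine signalling that TAM receptors induce, was the 1 DEG of the 67 at the medium dose in liver, with a rise of 0.79 ± 0.16 (adjusted p = 0.0405), beside 0.24% of all genes. At the high dose its change was 0.31. In high-dose liver, given without a test, the 2 genes past both limits were Mfge8 (0.72), a bridging protein that links phosphatidylserine to integrins, and Cd36 (1.08), a scavenger receptor and fatty acid transporter, and both are of the 16 other receptors and bridging proteins. Of all genes 0.485% were past both limits there. That list had a median change of 0.11 in liver and -0.10 in lung, against 0.01 over all genes in each. In high-dose forestomach 0 of the 67 were DEGs, beside 0.15% of all genes, and Abca1 was at 0.74 ± 0.21 (adjusted p = 0.231).

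**Figure D5:**
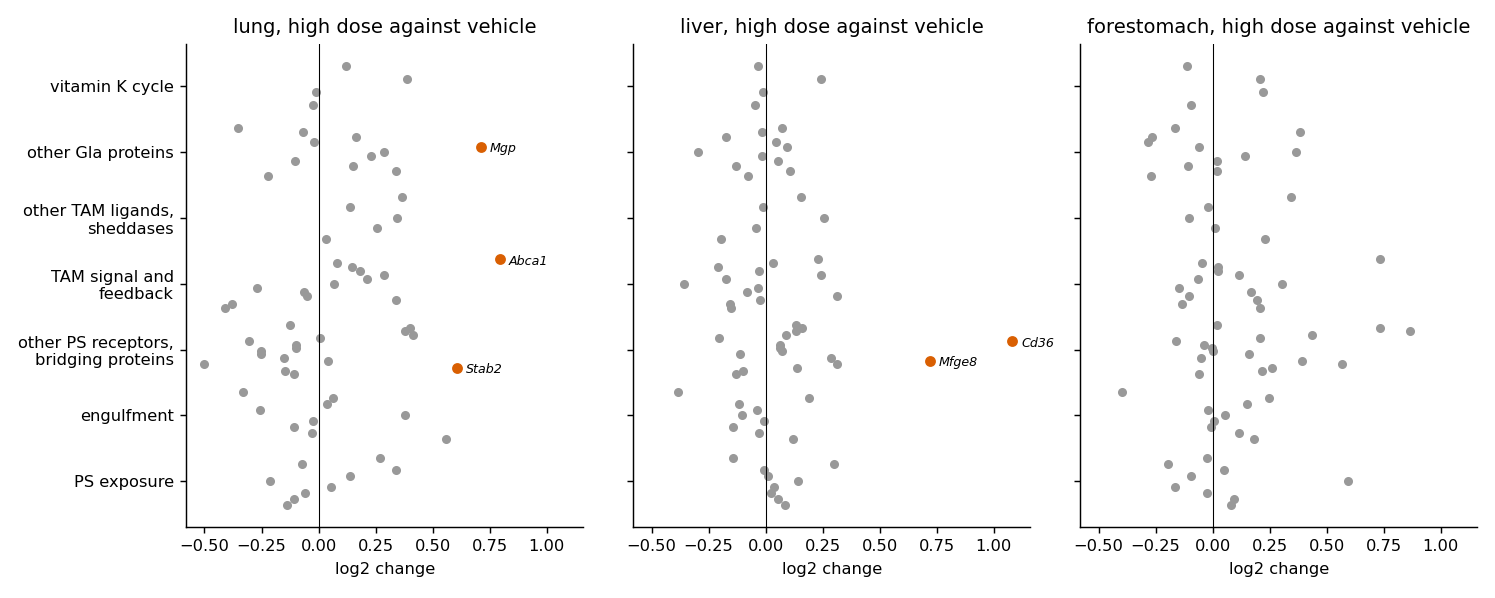
Log2 change at the high dose of the 67 genes of the 7 lists in lung, liver and forestomach, 1 point per gene, with genes past both limits of a DEG in orange and named (liver shown as a description; PS is phosphatidylserine). Most points lie near 0, and the named genes are Mgp, Abca1 and Stab2 in lung and Cd36 and Mfge8 in liver.

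Over the 12 group means, the profile of Gas6 was close to those of genes outside the TAM system. Among 12822 genes, the 5 with the highest Pearson correlation with Gas6 were Nptn (0.995), Ankrd13a (0.995), Coro1c (0.995), Lamc1 (0.994) and Hdac1 (0.993). Among its own receptors the correlation was 0.81 for Axl, 0.71 for Tyro3 and 0.24 for Mertk, and it was 0.18 for Pros1. These are descriptions over 12 points that share tissues and slides. The group means carry no slide term, and the dim slide held 1 vehicle liver and 3 high-dose livers. From vehicle to high dose the liver mean of Axl went from -2.66 to -2.16 and that of Pros1 from 1.73 to 1.41. With the slide as a block these changes were -0.25 and 0.36, so the correlations depend in part on the mix of slides.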

How the data were processed

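RNA of 59 tissue samples was hybridised by the authors to 2-colour Agilent arrays, tissue RNA in Cy5 and reference RNA in Cy3 without dye swap, and scanned with Feature Extraction 10.7.3.1. The deposited scanner files hold the median intensity of each of 62976 spots per channel, on a linear scale. The authors also deposited their processed log2 ratios, whose arrays correlated with the values used here at 0.967 to 0.999. Here, median intensities without background correction were loess-normalized within each array in limma 3.58.1 (R 4.3.3, data.table, version 1.17.8), which removes dye bias but assumes that most genes do not move. Control and non-uniform spots were left out and repeated spots averaged, leaving 55681 probes, of which 26413 carried an accession that RefSeq pairs with a symbol. With several probes for a gene, the one well above background on most arrays in Cy5 represented it. The precision of a value is limited by 4 or 5 animals per group, and p-values measure the spread between animals.

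Each tissue was fitted with limma across all probes with dose group as the term, in liver with the slide as a fixed block, and p-values were adjusted over all probes. The study's own test (a permutation F test in MAANOVA) was not run. The fit was tested on simulated data. The members and the gene lists were chosen with earlier results of these data known. Named genes are all members, list genes called in a comparison (at most the 4 largest changes per list), defining markers and the 5 genes most like Gas6. List genes Bglap, Elmo2, Cd68 and Hbb-b1 matched no probe. Alternatives were median centring, normexp background correction (offset 50), the authors' processed values, a filter on dim probes, other slide terms, the mouse as a block and leaving out each array in turn. Median centring with no slide term in liver was added after seeing the data. A mouse number in the labels marks the same animal in each tissue. For vehicle mice 1 to 5, the only ones checked, the deviations of same-numbered samples from their group means correlated between -0.119 and 0.128. One low-dose lung was not analysed here. The label of 1 forestomach sample lacks the tissue entry, and its title gives the tissue.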

Additional observations from a re-analysis of the deposited data

Results flagged for a closer look

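In the 60 groups of 4 or 5 samples that were examined, a sample stood far from the rest of its group in the following cases, where chance gives about 1 in 20. For Gas6 these were low-dose lung of mouse 6 at 3.13 (the others 3.71 to 3.81), low-dose liver of mouse 10 at 0.94 (0.46 to 0.60), which was on the dim slide, and high-dose liver of mouse 17 at 1.70 (1.21 to 1.35). The vehicle liver of mouse 5, on the dim slide, stood apart for Pros1 at 0.51 (1.88 to 2.14), for Axl at -1.07 (-3.25 to -2.66) and for Tyro3 at -0.37 (-2.02 to -1.66). In high-dose forestomach, Axl of mouse 16 was -1.26 (-0.60 to -0.44). In medium-dose lung, Tyro3 of mouse 14 was 0.48 (0.03 to 0.13).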

How the results depend on the processing

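Median centring of each array in place of loess shifted the median of all genes by 0.20 in high-dose lung and 0.15 in high-dose forestomach. It made 4 of the 5 genes DEGs at the high dose in lung (4 in the dose trends, and 4 by adjusted p alone) and 1 in forestomach (Pros1), and turned Tyro3 to 0.11 in high-dose forestomach and to 0.018 in medium-dose liver. With it the Pros1 tissue differences against forestomach were no longer DEGs, at -1.70 against lung and -0.96 against liver, which left 8 of the 13 tissue differences as DEGs in place of 10. In medium-dose liver Tyro3, at -0.01 as reported, was 0.0086 with normexp and 0.011 without the dim slide. With no slide term Pros1 was -0.10, Axl 0.31 and Tyro3 0.30 there. With median centring and no slide term, added after seeing the data, high-dose liver gave -0.72 for Gas6, medium-dose liver gave -0.071 for Gas6, -0.45 for Pros1 and -0.10 for Mertk, and 0 of the 5 genes stayed past both limits in liver. Without the dim slide 2 were past them, Gas6 and Pros1. The counts past both limits in liver include the contrast that led to the choice of the genes. They are given as a description with no test. The Gas6 difference between medium- and low-dose liver was 1.16 within the slide of mice 7 and 12. The cause of these shifts was not tested. Shares of all genes called in these alternative settings are not given here, so the counts of genes in them have no background.

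Leaving out 1 array at a time, the number of genes passing the adjusted p alone in high-dose lung ranged from 1 to 3. The interaction ranged from -0.025 to 0.14 for Pros1 and from -0.13 to 0.14 for Axl, and in medium-dose liver Axl ranged from -0.17 to 0.021 and Tyro3 from -0.050 to 0.054. The Pros1 difference between liver and lung became a DEG without vehicle liver 3 or 4, at -0.73 and -0.72, and with the filter on dim probes, at -0.62. With the mouse as a replicate block, 10 of the tissue differences were DEGs and 0 of the 5 genes passed the interaction, as without it. The authors' processed values changed no call or direction of the 52 results compared. In liver, signal over background limited the receptors, which had no signal well above background on the 8 arrays of the dim slide.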
